A study of Mus musculus with 6 samples.

Results

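The genes described here are 31 genes of the cell cycle, found by their symbols in the table of 55450 genes. They comprise 14 genes of G1/S and DNA replication, 15 genes of G2/M, and Ccna2 and Stmn1, which were set apart because their transcripts are not tied to 1 of those phases. Expression was measured by bulk RNA sequencing of lymphocytes sorted from mammary glands late in pregnancy (E18.5). The 3 libraries of the first group came from CD8 beta+ T cells. The 3 libraries of the other came from double negative (DN) NK1.1+ lymphocytes, whose titles in the labels call them T cells. NK1.1 is a receptor found on natural killer cells and on certain T cells, and the markers absent from DN cells are not named. Strain, age, the number of animals behind a library and any pooling are not given in the labels, and no treatment or genetic change is named. The study asked whether unconventional lymphocytes within the mammary epithelium regulate its differentiation. The comparison here asks how the 2 populations differed in transcripts of dividing cells.

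A dividing cell passes from G1 through DNA synthesis (S) and G2 into mitosis (M). Genes for cyclin E, the replicative helicase and nucleotide synthesis are switched on by E2F factors as cells enter S phase, while genes for cyclin B, mitotic kinases and the spindle are switched on later through B-MYB and FOXM1 bound with the MuvB complex. In resting lymphocytes both sets are held down, and transcripts of both sets accumulate when T or NK cells are stimulated to proliferate. In bulk samples, fewer cells in cycle and less RNA per cycling cell cannot be told apart.

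The promoters of both classes were searched for the motifs known for these factors. Windows of 250 bases before to 50 bases after the start were taken from RefSeq (GRCm38.p6, the mm10 assembly), and were found for 12 of the 14 G1/S and 14 of the 15 G2/M genes. Both strands were searched, and overlapping matches were counted separately. The cell cycle homology region, TTTGAA, through which MuvB binds, stood in windows of 10 of 14 G2/M genes and of 1 of 12 G1/S genes (Mcm2), against 17.9% of all 32851 RefSeq windows. An E2F site (TTTGGCGC, TTTCCCGC, TTTGGCGG or TTTCGCGC) stood in 5 of 12 G1/S genes and in 1 of 14 G2/M genes (Cdk1), against 2.37% of all windows. The 5 G1/S genes with an E2F match were Mcm3, Mcm5, Mcm6, Mcm7 and Pclaf. No E2F match stood in the windows of Ccne1, Mcm2, Pcna, Tyms, Tk1, Rrm1 and Rrm2. The CCAAT box, bound by NF-Y, stood in 9 of 12 G1/S and 12 of 14 G2/M genes, against 37.4%. These matches describe letters in a window and are not measured binding sites. The 250 bases upstream of the start are printed below for 2 helicase genes and for the 3 G2/M genes that made up most of the G2/M transcripts, 5′ to 3′ on the gene's strand, with matches to any of the 3 motifs on either strand in capitals.
Mcm5 (GRCm38.p6 chr8:75109259-75109508, plus strand): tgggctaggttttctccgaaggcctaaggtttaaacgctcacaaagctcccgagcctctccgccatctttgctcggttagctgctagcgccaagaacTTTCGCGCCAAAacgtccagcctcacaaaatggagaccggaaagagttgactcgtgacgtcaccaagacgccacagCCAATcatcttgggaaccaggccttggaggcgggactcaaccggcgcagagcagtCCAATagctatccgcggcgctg
Mcm6 (GRCm38.p6 chr1:128359706-128359955, minus strand): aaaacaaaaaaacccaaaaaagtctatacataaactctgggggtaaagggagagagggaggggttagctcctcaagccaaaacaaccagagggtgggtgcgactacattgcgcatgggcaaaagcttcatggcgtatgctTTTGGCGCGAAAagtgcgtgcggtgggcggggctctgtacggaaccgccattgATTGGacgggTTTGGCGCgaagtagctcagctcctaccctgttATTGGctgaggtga
Mki67 (GRCm38.p6 chr7:135716380-135716629, minus strand): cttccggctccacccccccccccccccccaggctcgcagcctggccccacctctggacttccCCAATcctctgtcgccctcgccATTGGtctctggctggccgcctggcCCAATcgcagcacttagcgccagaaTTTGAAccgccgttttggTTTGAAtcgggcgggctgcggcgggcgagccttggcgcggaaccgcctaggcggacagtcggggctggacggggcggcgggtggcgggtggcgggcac
Top2a (GRCm38.p6 chr11:99024190-99024439, minus strand): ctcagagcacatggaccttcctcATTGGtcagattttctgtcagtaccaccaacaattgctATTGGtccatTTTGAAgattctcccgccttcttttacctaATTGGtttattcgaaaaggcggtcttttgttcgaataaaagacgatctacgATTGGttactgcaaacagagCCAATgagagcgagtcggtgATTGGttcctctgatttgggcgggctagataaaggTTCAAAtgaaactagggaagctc
Hmgb2 (GRCm38.p6 chr8:57511593-57511842, plus strand): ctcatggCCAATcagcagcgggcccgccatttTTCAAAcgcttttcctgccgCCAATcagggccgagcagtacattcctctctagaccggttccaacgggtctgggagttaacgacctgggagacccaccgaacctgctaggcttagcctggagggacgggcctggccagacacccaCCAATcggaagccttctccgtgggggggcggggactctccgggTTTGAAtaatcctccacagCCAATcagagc
Mcm5 and Mcm6 hold overlapping E2F matches on opposite strands and no TTTGAA, whereas Mki67, Top2a and Hmgb2 each hold a pair of TTTGAA matches, several CCAAT boxes and no E2F match. The starts are those of RefSeq. Bases shortly after the start were found in 1 of 2 GENCODE M21 transcripts of Mki67 and in 2 of 7 of Top2a. They were found in 0 of 5 of Mcm5, 0 of 4 of Mcm6 and 0 of 3 of Hmgb2, so the starts of these genes are uncertain.

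The labels were checked first. Cd8b1, which encodes CD8 beta, lay between 892 and 1007 CPM (counts scaled to library size) in CD8 beta+ libraries and between 1.21 and 4.31 CPM in DN NK1.1+ libraries. Klrb1c, which encodes NK1.1, lay between 30.8 and 41.8 CPM and between 618 and 659 CPM. Library totals ran from 7961360 to 14367299 counts and normalization factors from 0.965 to 1.03. After that scaling 1 count was worth 0.0722 to 0.130 CPM. CD8 beta+ replicate 3 stood apart from replicates 1 and 2 in the cell cycle genes, as described further on, and its values are given throughout. Values are listed for replicates 1, 2 and 3 in that order. Whether libraries of 1 group are separate animals is not stated, so the p-values reflect only the spread between these samples, and that spread may be technical.

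With all 6 libraries, none of the 31 genes differed between the groups at an adjusted p under 0.05 (quasi-likelihood test of edgeR, adjusted by the Benjamini-Hochberg method). Over all 13171 genes tested, 13.8% passed, 7.84% as higher and 5.99% as lower in DN NK1.1+ libraries. All 31 cell cycle genes had enough counts to be tested. At an unadjusted p under 0.05, Ccne2 was higher and Birc5, Bub1, Top2a and Nusap1 were lower in DN NK1.1+ libraries, that is 1 and 4 of 31, against 13.4% and 11.6% of tested genes. DESeq2 called Ccne2 as higher and Top2a and Nusap1 as lower, 3 of 31 genes, and limma-voom called Ccne2 alone, 1 of 31. Over all genes, DESeq2 called 1120 as higher and 909 as lower of 13164, and limma-voom 973 and 782 of 13171. Calls changed with single libraries. Without CD8 beta+ replicate 2, Birc5, Top2a, Nusap1 and Ccna2 passed as lower, 4 of 31. In that fit 9.19% of tested genes passed (5.33% higher, 3.87% lower). Without CD8 beta+ replicate 3, Ccne2 alone passed, where 14.3% of tested genes did (7.92% higher, 6.4% lower). Without DN NK1.1+ replicate 3 no member passed, where 12.6% of tested genes passed (6.85% higher, 5.75% lower). Without both replicate 3 libraries Ccne2 alone passed again, where 16.9% of tested genes did (9.12% higher, 7.74% lower). The 95% interval of the log2 fold change stayed within a 2-fold change in either direction for 23 of 31 genes.

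The 2 classes lay on the same side of 0 and at different distances from it. The fitted log2 fold change, DN NK1.1+ over CD8 beta+, was below 0 in 12 of 14 G1/S genes (median −0.11) and in 15 of 15 G2/M genes (median −0.48). Among all tested genes 50.3% were below 0 and the median was −0.0033. The size of both medians depended on CD8 beta+ replicate 3, and so did the sign of the G1/S median. Without that library, 6 of 14 G1/S genes (median 0.07) and 12 of 15 G2/M genes (median −0.12) were below 0. Values of the 2 groups did not overlap in Ccne2, higher in DN NK1.1+ libraries, and in Aurka, Bub1 and Nusap1, lower there, which is 4 of 31 genes against 30.6% of all tested genes.

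**Figure D1:**
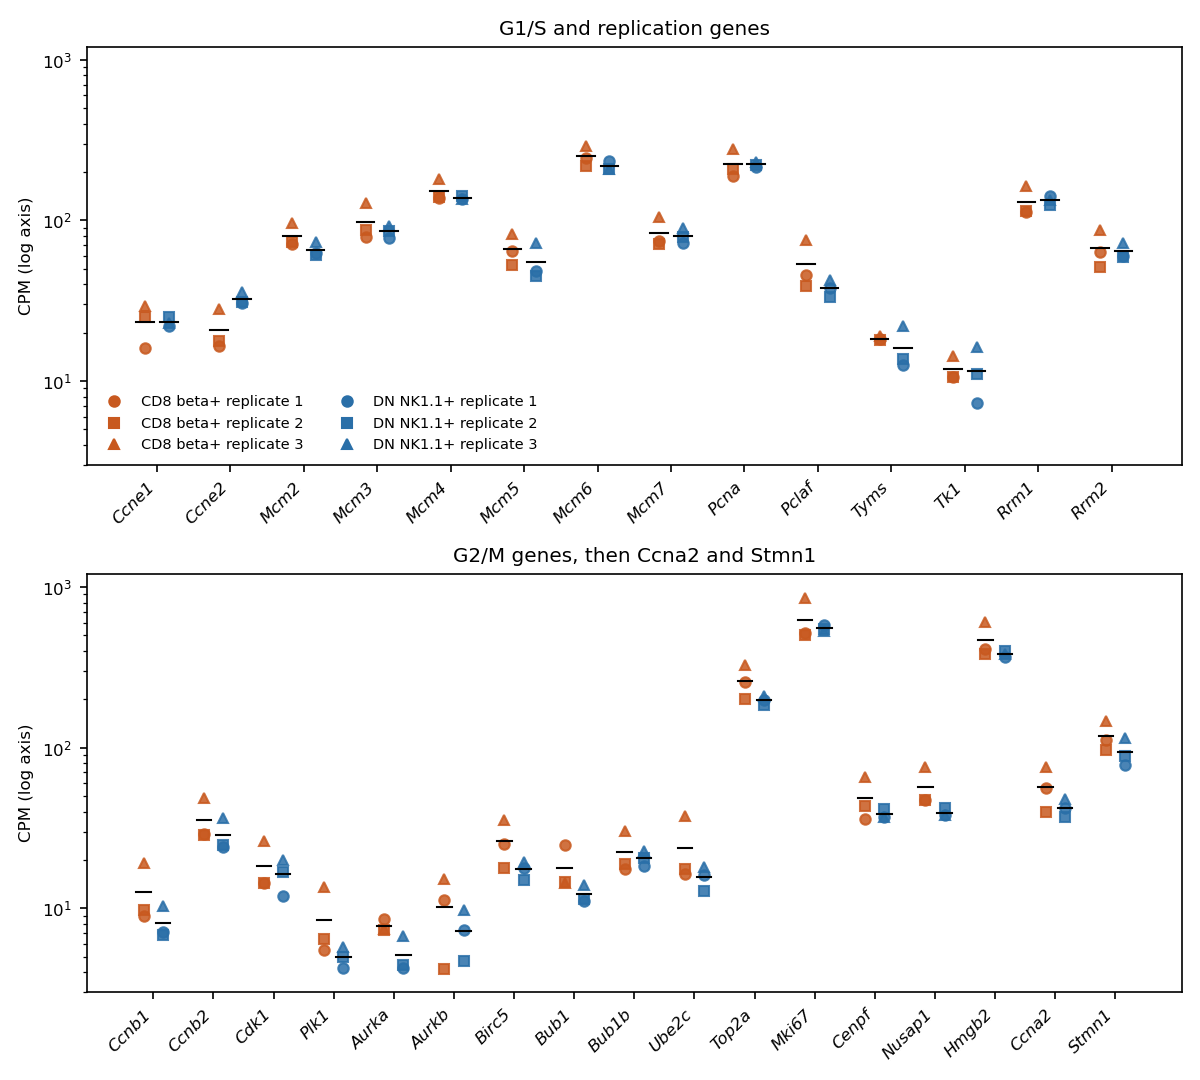
Level of each of the 31 genes in each library (CPM on a log axis), with G1/S and replication genes in the upper panel and G2/M genes, Ccna2 and Stmn1 in the lower one. Marker shape gives the replicate, colour the group and black lines the group means. CD8 beta+ replicate 3 is the highest of the 6 libraries in 26 of 31 genes.

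Among the genes that start S phase, those for the 2 cyclins E, which activate CDK2, differed in pattern. Ccne1 had 15.99, 25.1 and 29.2 CPM in CD8 beta+ libraries and 22.2, 25.0 and 23.0 CPM in DN NK1.1+ libraries, with overlapping groups (log2 fold change −0.01, 95% interval −0.46 to 0.45). Ccne2 had 16.6, 17.8 and 28.2 CPM in CD8 beta+ libraries and 30.4, 31.1 and 36.0 CPM in DN NK1.1+ libraries. All 3 DN NK1.1+ libraries thus lay above all 3 CD8 beta+ libraries, and CD8 beta+ replicate 3 lay nearest to them. The log2 fold change of Ccne2 was 0.64 (SE 0.207, 95% interval 0.20 to 1.08), with an adjusted p of 0.0539 in edgeR's quasi-likelihood test. Without CD8 beta+ replicate 3 it was 0.91 with an adjusted p of 0.00477, and over the alternatives tried the adjusted p of this gene ran from 0.00477 to 0.232. Ccne2 lies on chromosome 4 (mm10, 11191351 to 11204779), where it shares 609 exon bases with Ints8 on the opposite strand. Ints8, a subunit gene of the Integrator complex, had 53.6, 56.9 and 56.2 CPM against 71.3, 70.3 and 70.3 CPM (log2 fold change 0.35, adjusted p = 0.0503). Whether counting used strand is not given in the sources used here, so reads of the 2 genes may not have been told apart.

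The genes Mcm2 to Mcm7, which encode the 6 subunits of the replicative helicase, all had fitted values slightly below 0. Mcm6 had 244, 217 and 289 CPM in CD8 beta+ libraries and 235, 210 and 210 CPM in DN NK1.1+ libraries. Mcm2, with the lowest fitted value of the 6 (log2 fold change −0.29, 95% interval −0.58 to 0.0035), had 71.0, 73.2 and 96.4 CPM against 62.2, 61.1 and 73.8 CPM. In each, the groups overlapped and CD8 beta+ replicate 3 was the highest library. Mcm4 had 138, 141 and 180 CPM against 136, 142 and 135 CPM (log2 fold change −0.15), so that 2 CD8 beta+ libraries matched the DN NK1.1+ libraries closely. For Mcm3, 78.8, 86.9 and 129 CPM stood against 78.1, 85.4 and 92.5 CPM (log2 fold change −0.20). For Mcm5, 64.7, 52.5 and 82.5 CPM stood against 48.4, 44.9 and 72.8 CPM (log2 fold change −0.26). In Mcm2, Mcm3, Mcm5 and Mcm7, replicate 3 was the highest library of both groups. Mcm7 had 74.1, 71.6 and 105 CPM against 72.6, 78.3 and 89.1 CPM (log2 fold change −0.06). It shares 321 and 64 exon bases with Ap4m1 and Cops6 on the opposite strand, so its level is uncertain in the same way as that of Ccne2.

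Pcna, the sliding clamp of the replication fork, differed little. It had 189, 209 and 278 CPM against 215, 222 and 231 CPM (log2 fold change −0.02, 95% interval −0.28 to 0.25). The 3 DN NK1.1+ libraries lay inside the range of the CD8 beta+ libraries. Pclaf, whose product binds PCNA, had 45.6, 39.0 and 75.5 CPM against 38.1, 33.5 and 42.6 CPM (log2 fold change −0.49, 95% interval −0.98 to 0.0075), the lowest fitted value of the 14 G1/S genes. Its distance from 0 came mostly with CD8 beta+ replicate 3, without which it was −0.16. Pcna-ps2, a pseudogene of Pcna with which reads could be shared, had 81.3 counts over the 6 libraries.

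Genes of nucleotide supply showed no difference beyond the spread between libraries. Rrm1 and Rrm2 encode the subunits of ribonucleotide reductase. Rrm1 had 113, 114 and 163 CPM against 142, 125 and 135 CPM (log2 fold change 0.04, 95% interval −0.25 to 0.33), and Rrm2 had 63.4, 51.6 and 86.6 CPM against 60.2, 59.3 and 72.6 CPM (−0.07, −0.44 to 0.30). Tyms, for thymidylate synthase, had 18.2, 17.9 and 19.1 CPM against 12.6, 13.7 and 21.9 CPM (log2 fold change −0.19). It was the G1/S gene with the smallest excess in CD8 beta+ replicate 3, and DN NK1.1+ replicate 3 was its highest library. Tk1, for thymidine kinase, had 10.7, 10.5 and 14.4 CPM against 7.33, 11.1 and 16.2 CPM (log2 fold change −0.04), again with DN NK1.1+ replicate 3 highest. It shares 83 exon bases with Afmid on the opposite strand.

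Cyclin B and CDK1 form the kinase that drives entry into mitosis. Ccnb1 had 8.97, 9.75 and 19.1 CPM in CD8 beta+ libraries and 7.15, 6.79 and 10.4 CPM in DN NK1.1+ libraries (log2 fold change −0.64, 95% interval −1.32 to 0.04). Ccnb2 had 28.9, 28.4 and 48.7 CPM against 24.0, 24.8 and 36.3 CPM (−0.31), and Cdk1 had 14.4, 14.3 and 26.3 CPM against 11.9, 16.8 and 20.0 CPM (−0.17). In all 3 genes replicate 3 was the highest library of each group, and the groups overlapped. Without CD8 beta+ replicate 3 the fitted values were −0.22, −0.02 and 0.17.

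The mitotic kinase genes Plk1, Aurka and Aurkb had the fewest counts of the G2/M class and wide intervals. Plk1, for Polo-like kinase, had 5.46, 6.43 and 13.49 CPM against 4.22, 4.94 and 5.77 CPM (log2 fold change −0.76, 95% interval −1.57 to 0.05). Aurkb, for the kinase of the chromosomal passenger complex, had 11.3, 4.19 and 15.2 CPM against 7.33, 4.69 and 9.79 CPM (log2 fold change −0.48, 95% interval −1.43 to 0.47). For both genes CD8 beta+ replicate 3 was the highest library. Aurka, for the kinase of the spindle poles, had 8.58, 7.37 and 7.41 CPM against 4.22, 4.44 and 6.75 CPM (log2 fold change −0.59, 95% interval −1.30 to 0.11). It was 1 of 2 members of the set in which CD8 beta+ replicate 3 was not the highest of its group, and its groups did not overlap. Birc5, which encodes survivin, a partner of Aurora B, had 25.2, 17.7 and 35.2 CPM against 17.9, 15.1 and 19.3 CPM (log2 fold change −0.57, 95% interval −1.08 to −0.07, adjusted p = 0.140 in edgeR's quasi-likelihood test).

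Checkpoint genes Bub1 and Bub1b, whose products delay anaphase until chromosomes are attached, showed different patterns over the libraries. Bub1 had 24.7, 14.7 and 14.4 CPM against 11.1, 11.4 and 14.03 CPM (log2 fold change −0.55, 95% interval −1.08 to −0.02, adjusted p = 0.182 in edgeR's quasi-likelihood test). Here CD8 beta+ replicate 1 was the highest library and replicate 3 the lowest of its group. Bub1b had 17.7, 18.9 and 30.2 CPM against 18.45, 20.7 and 22.8 CPM (log2 fold change −0.11). Ube2c, for the ubiquitin-conjugating enzyme of the anaphase-promoting complex, had 16.3, 17.6 and 37.5 CPM against 16.2, 12.8 and 18.1 CPM (log2 fold change −0.60). The difference in fitted value between Bub1 and Bub1b was not tested. Ube2c shares 592 exon bases with Tnnc2 on the opposite strand, which had 2 counts over all libraries.

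Chromosome and spindle genes held the bulk of the G2/M transcripts. Mki67, which encodes the Ki-67 protein that coats mitotic chromosomes, had 515, 501 and 853 CPM in CD8 beta+ libraries and 581, 545 and 534 CPM in DN NK1.1+ libraries. CD8 beta+ replicates 1 and 2 lay below every DN NK1.1+ library and replicate 3 lay above them. The log2 fold change of −0.17 (95% interval −0.64 to 0.29) became 0.11 (−0.08 to 0.31) without CD8 beta+ replicate 3. Top2a, for the topoisomerase that untangles chromosomes, had 255, 202 and 327 CPM against 198, 185 and 211 CPM (log2 fold change −0.40, SE 0.150, adjusted p = 0.116 in edgeR's quasi-likelihood test). Hmgb2, a chromatin protein gene, had 412, 381 and 606 CPM against 367, 398 and 381 CPM (log2 fold change −0.29). For Hmgb2 and Top2a the groups overlapped, and CD8 beta+ replicate 3 was again the highest library.

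Nusap1, which encodes a protein that bundles spindle microtubules, came closest to the threshold among the G2/M genes. It had 47.3, 47.2 and 75.7 CPM against 38.3, 41.9 and 38.1 CPM (log2 fold change −0.52, SE 0.175, 95% interval −0.90 to −0.15, adjusted p = 0.0624 in edgeR's quasi-likelihood test). All 3 DN NK1.1+ libraries lay below all CD8 beta+ libraries. Without CD8 beta+ replicate 2 the adjusted p of Nusap1 was 0.0490, and without CD8 beta+ replicate 3 it had a log2 fold change of −0.27 and an adjusted p of 0.268. Over all alternatives its adjusted p ran from 0.00551 to 0.361. Without CD8 beta+ replicate 2, Birc5, Top2a and Ccna2 also passed. Nusap1 shares 172 exon bases with Oip5 on the opposite strand, which was at or below 1.95 CPM in every library. Cenpf, for a large kinetochore protein, had 36.0, 43.4 and 66.0 CPM against 37.2, 41.6 and 37.2 CPM (log2 fold change −0.33, 95% interval −0.74 to 0.09).

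Ccna2 and Stmn1 followed the same pattern. Ccna2, for cyclin A2, which acts from S phase into G2, had 55.8, 39.8 and 75.8 CPM against 41.8, 37.1 and 47.6 CPM (log2 fold change −0.43, 95% interval −0.89 to 0.02). Stmn1, for the microtubule-destabilizing protein stathmin, had 112, 97.2 and 147 CPM against 78.2, 88.6 and 114 CPM (log2 fold change −0.34, 95% interval −0.73 to 0.05). The groups overlapped in both genes, and replicate 3 was the highest library of each group. Ccna2 shares 510 exon bases with Exosc9 on the opposite strand, which had 23.8, 25.9 and 22.1 CPM against 34.0, 29.2 and 23.4 CPM.

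**Figure D2:**
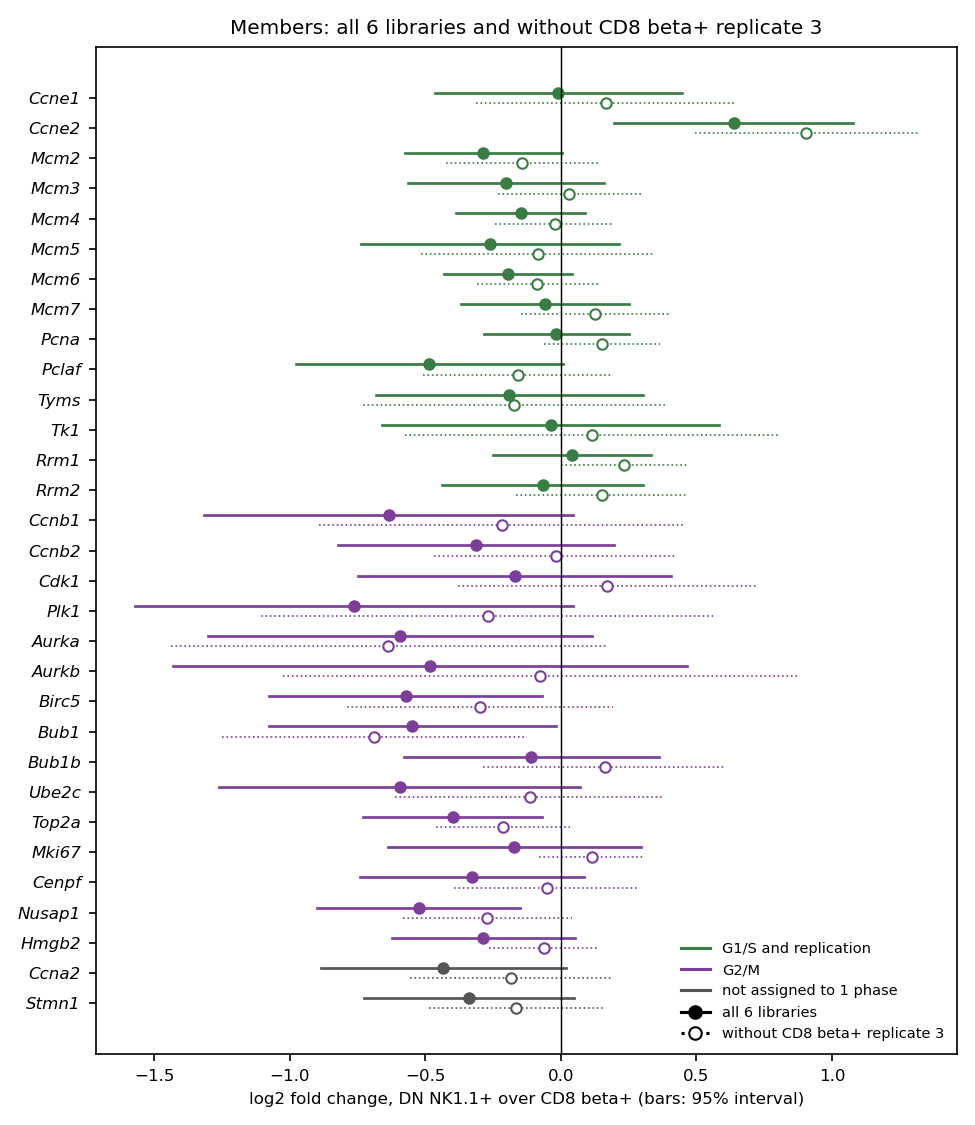
Log2 fold change of each gene, DN NK1.1+ over CD8 beta+ (points, with 95% intervals as bars), fitted on all 6 libraries and without CD8 beta+ replicate 3. The 15 G2/M genes lie below 0 in the first fit and 12 of 15 in the other, where Ccne2 lies at 0.91.

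Per kilobase of merged exons, the order of the levels was similar in both groups at its top. Hmgb2 led with a mean of 155 CPM per kb for CD8 beta+ and 127 for DN NK1.1+ libraries, followed by Pcna at 94.0 and 92.9 CPM per kb. Mki67 at 61.9 and 55.0 CPM per kb, Stmn1 at 61.8 and 48.8 CPM per kb and Mcm6 at 53.5 and 46.8 CPM per kb came next. Libraries of Mki67 and Stmn1 overlapped in both groups, and Mki67 lay above Mcm6 in all DN NK1.1+ libraries but overlapped with it in CD8 beta+ libraries. Tk1, with 2.28 and 2.22 CPM per kb, was the lowest in CD8 beta+ libraries and Ccnb1, with 2.99 and 1.92 CPM per kb, in DN NK1.1+ libraries. The mitotic regulators Cdk1, Plk1, Aurka, Aurkb and Bub1 all had means of 4.12 CPM per kb or less in both groups.

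Summed over the class, G1/S genes held 1143, 1126 and 1576 CPM in CD8 beta+ libraries and 1160, 1143 and 1251 CPM in DN NK1.1+ libraries (1282 ± 255 and 1185 ± 58.3, mean ± SD, n = 3). The G2/M sum was 1427, 1313 and 2175 CPM against 1344, 1334 and 1364 CPM (1638 ± 468 and 1347 ± 15.2). In both classes the CD8 beta+ libraries 1 and 2 lay close to the DN NK1.1+ libraries, and replicate 3 lay above all others. Mki67 made up 38.0% and Hmgb2 28.46% of the G2/M sum in CD8 beta+ libraries, so that these sums speak mostly for them.

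The ratio of the G2/M to the G1/S sum, in which scaling between libraries cancels, was 1.25, 1.17 and 1.38 in CD8 beta+ libraries. In DN NK1.1+ libraries it was 1.16, 1.17 and 1.09. The groups overlapped, as CD8 beta+ replicate 2 (1.166) lay below DN NK1.1+ replicate 2 (1.167). When the 5 most abundant genes (Mki67, Hmgb2, Top2a, Mcm6 and Pcna) were left out, the ratio was 0.345, 0.328 and 0.386 in the CD8 beta+ group, against 0.279, 0.290 and 0.294 in the DN NK1.1+ group. On this scale all 3 CD8 beta+ libraries lay above all 3 DN NK1.1+ libraries, replicate 3 included or not. That choice of genes was made after the data were seen. The mean log2 level of all G2/M genes minus that of all G1/S genes, which leaves out no gene, also did not overlap between the groups. It was −0.81, −0.98 and −0.71 in CD8 beta+ libraries and −1.12, −1.17 and −1.12 in DN NK1.1+ libraries. No test was made of the ratio or of this difference.

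**Figure D3:**
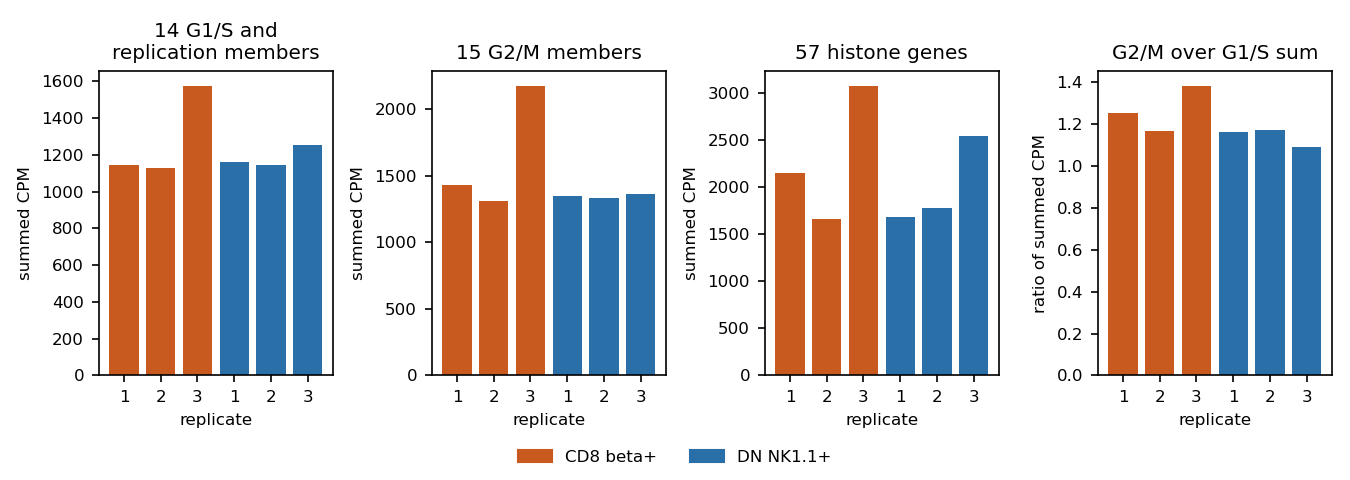
Summed CPM of G1/S, G2/M and replication-dependent histone genes in each library (bars) and, in the last panel, the ratio of the G2/M to the G1/S sum. CD8 beta+ replicate 3 holds 2175 CPM of G2/M transcripts, against 1313 to 1427 CPM in the other 5 libraries.

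CD8 beta+ replicate 3 was the library behind most of the spread. It was the highest of its group in 29 of 31 genes (all 14 G1/S genes, 13 of 15 G2/M genes, Ccna2 and Stmn1), against 38.0% of all tested genes, and the highest of all 6 libraries in 26 of 31, against 17.4%. Its log2 level exceeded the mean of replicates 1 and 2 by a median of 0.51 in G1/S genes and 0.74 in G2/M genes, against 0.02 over all tested genes. The excess was above 0.5 in 22 of 31 genes, against 14.9% of all tested genes. It was largest in Plk1 at 1.16, Ube2c at 1.14 and Aurkb at 1.12, and lay below 0 in Aurka at −0.10 and Bub1 at −0.40. The SD was larger in the CD8 beta+ than in the DN NK1.1+ group in 27 of 31 genes, against 48.4% of all tested genes.

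DN NK1.1+ replicate 3 was the highest of its group in 23 of 31 genes, against 36.4% of all tested genes. Its excess was smaller at the median than in the CD8 beta+ group, and larger in Tk1, Tyms, Mcm5, Aurka and Bub1. Its median excess over replicates 1 and 2 was 0.23 log2 units in G1/S genes and 0.31 in G2/M genes. Tk1 at 0.84 and Tyms at 0.73 were highest there, while Mki67 at −0.08 was not raised. The G2/M sum of this library, in which Mki67 and Hmgb2 weigh most, was 1.02 times the mean of its 2 fellow libraries, against 1.59 times in the CD8 beta+ group. The G1/S sums gave 1.09 and 1.39 times. Without the 5 most abundant genes the G2/M sum was 198, 206 and 239 CPM in DN NK1.1+ libraries, highest in replicate 3.

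**Figure D4:**
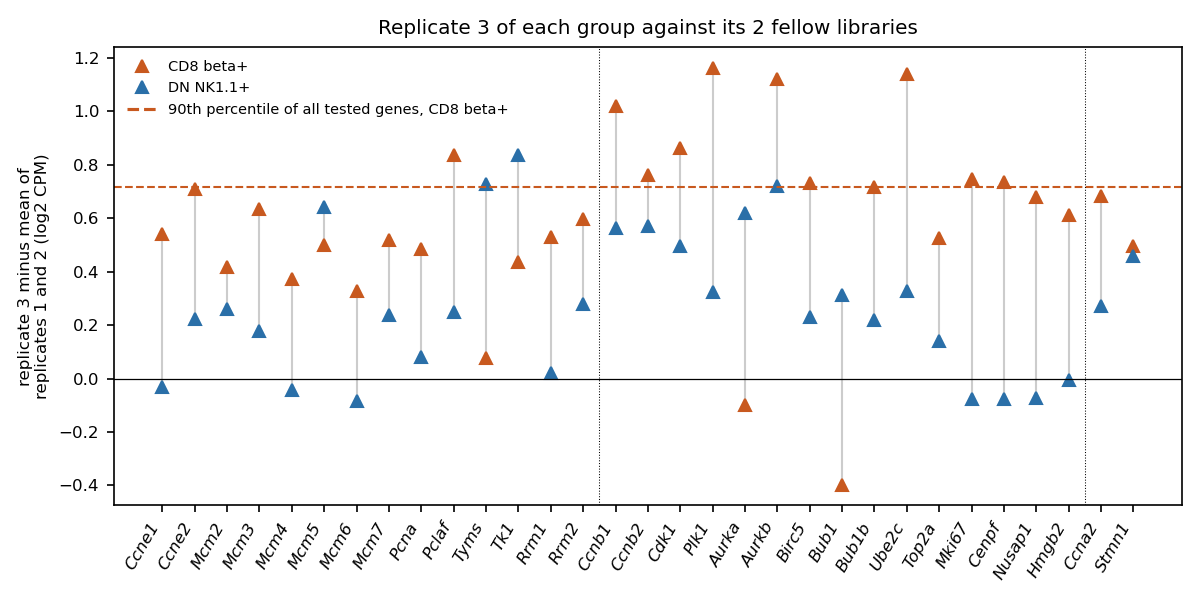
Log2 level of replicate 3 minus the mean of replicates 1 and 2, for each gene and group (triangles), with the 90th percentile of all tested genes in CD8 beta+ libraries, 0.72, as a dashed line and dotted lines between the classes. The points of the CD8 beta+ group reach 1.16 in Plk1 and lie below 0 in Aurka and Bub1.

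Other transcripts also set CD8 beta+ replicate 3 apart. Genes of naive and recirculating T cells (Ccr7, S1pr1, Klf2, Tcf7 and Lef1, a list added after the data were seen) summed to 874, 884 and 546 CPM in CD8 beta+ libraries and to 278, 285 and 258 CPM in DN NK1.1+ libraries. Ccr7, the receptor that guides lymphocytes to lymph nodes, had 91.6, 93.0 and 25.9 CPM in CD8 beta+ libraries, and Tcf7, which encodes the DNA-binding protein TCF1 of resting T cells, had 342, 335 and 216 CPM. All 5 genes of that list were lower in CD8 beta+ replicate 3 than in replicates 1 and 2. The part of this difference in the cell cycle values was not tested.

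Markers of basal epithelium and fibroblasts were high in both replicate 3 libraries. The basal epithelial list (7 genes, led by Acta2) summed to 17.4, 15.2 and 148 CPM in the CD8 beta+ group and 9.83, 20.8 and 197 CPM in the other. The fibroblast list (6 genes, led by Col3a1) summed to 39.8, 11.3 and 157 CPM against 40.9, 1.84 and 145 CPM. Replicate 3 was the highest library of its group in both lists and both groups. Endothelial genes (5, led by Pecam1) summed to 34.8, 38.8 and 40.1 CPM against 74.2, 49.4 and 80.0 CPM. Pecam1, which lymphocytes also express, carried this sum, while Cdh5, Kdr, Emcn and Plvap were at 0 to 0.939 CPM in CD8 beta+ replicates 1 and 2 and at 2.88 to 6.18 CPM in replicate 3. In DN NK1.1+ replicates 1, 2 and 3 these 4 genes reached at most 4.57, 1.17 and 8.42 CPM. The median excess of CD8 beta+ replicate 3 over its fellow libraries was 3.79 log2 units in the endothelial list, 3.11 in the basal list and 2.88 in the fibroblast list. Luminal and milk genes (12, led by Csn2) summed to 994, 664 and 858 CPM against 378, 1025 and 2070 CPM. Their sum in CD8 beta+ replicate 3 lay between those of its 2 fellow libraries.

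Lists of blood cells were summed in the same way. Myeloid genes (15, led by Cd74) summed to 593, 672 and 730 CPM in CD8 beta+ libraries and to 1152, 769 and 1008 CPM in DN NK1.1+ libraries. B and plasma cell genes (6, led by Ighm) summed to 252, 252 and 172 CPM against 314, 319 and 273 CPM. In both sums the DN NK1.1+ libraries lay above the CD8 beta+ libraries. The B and plasma cell sum was carried by Ighm, and 4 of its 6 genes (Cd79a, Cd79b, Ms4a1 and Pax5) had fitted values below 0, with a list median log2 fold change of −1.32. In that list Ighm passed the test as higher and Cd79b as lower in DN NK1.1+ libraries. Erythroid genes (6, led by Alas2) summed to 42.5, 38.0 and 15.9 CPM against 21.4, 30.2 and 12.3 CPM, lowest in replicate 3 of each group. Genes of CD4 and regulatory T cells (4, led by Zbtb7b) summed to 7.41, 13.3 and 16.5 CPM against 16.4, 24.8 and 30.3 CPM. The part of any of these cells, epithelial, stromal or blood, in the cell cycle values was not tested.

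**Figure D5:**
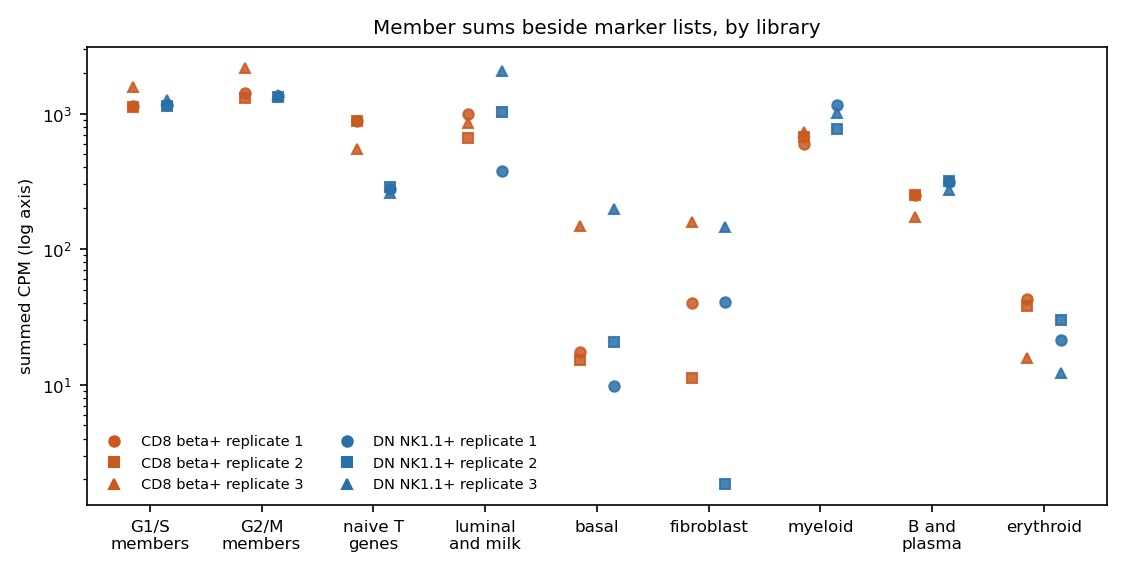
Summed CPM of the G1/S and G2/M genes beside marker lists of other cells and the list of naive T cell genes, by library (log axis). CD8 beta+ replicate 3 is the highest library in both cell cycle sums and the lowest of its group in naive T cell genes, while basal and fibroblast sums are high in replicate 3 of both groups.

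The wider cell cycle was read from 6 further lists with 197 genes, of which 192 were tested. In DN NK1.1+ cells 4 of these rose and 9 fell, against the 7.84% and 5.99% of all tested genes. These counts moved with single libraries. Higher genes numbered 1 without CD8 beta+ replicate 1 or 2, 2 without DN NK1.1+ replicate 1 or 2, and 7 without CD8 beta+ replicate 3. Over all genes, 681 and 733 were higher without CD8 beta+ replicates 1 and 2, and 792 and 738 without DN NK1.1+ replicates 1 and 2. Without CD8 beta+ replicate 3 there were 1093, against 1033 with all 6 libraries. Lower genes numbered 4 without CD8 beta+ replicate 1, 5 without DN NK1.1+ replicate 2 and 20 without DN NK1.1+ replicate 3. Over all genes, the same fits called 499, 585 and 782 as lower, against 789 with all 6 libraries.

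Of the 4 higher genes, 3 came 1 each from the lists of CDK inhibitors, of G1 entry and of DREAM, B-MYB and FOXM1, with 9, 16 and 11 genes tested, where 7.84% of all tested genes were higher. Cdkn1a, which encodes the CDK inhibitor p21, had 15.99, 18.3 and 19.6 CPM in CD8 beta+ libraries and 33.1, 38.5 and 45.7 CPM in DN NK1.1+ libraries. The groups did not overlap, and Cdkn1a rose by a log2 fold change of 1.12 (SE 0.177, adjusted p = 0.000409 in edgeR's quasi-likelihood test). It was the sole call among the 9 tested genes of CDK inhibitors and pocket proteins. Tfdp2, for a dimer partner of E2F factors, rose from 27.2, 22.6 and 34.0 CPM to 44.6, 44.4 and 41.5 CPM (log2 fold change 0.64, adjusted p = 0.0166 in the same test), the 1 call of 16 genes of G1 entry. Lin54, for the MuvB subunit that binds TTTGAA, rose from 68.2, 68.0 and 94.6 CPM to 105, 108 and 97.8 CPM (log2 fold change 0.43, adjusted p = 0.0393), the 1 call of 11 genes of the DREAM, B-MYB and FOXM1 list. The calls of Tfdp2 and Lin54 were lost without any 1 of CD8 beta+ replicates 1 and 2 and DN NK1.1+ replicates 1 and 2.

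Of 40 other replication genes, 2 passed the test, both lower in DN NK1.1+ libraries (5.99% of all tested genes were lower), and the median log2 fold change was −0.10. Rpa2, for a subunit of the single-strand DNA binding protein RPA, had 41.6, 41.5 and 56.1 CPM against 18.8, 15.4 and 23.6 CPM. It fell by 1.27 on the log2 scale (SE 0.190, adjusted p = 0.00027 in edgeR's quasi-likelihood test), with no overlap between groups. Ticrr, whose product helps to fire replication origins, had 26.3, 20.7 and 34.2 CPM against 11.4, 15.5 and 18.0 CPM (log2 fold change −0.85, adjusted p = 0.0213). The call of Ticrr was lost without CD8 beta+ replicate 1 or 3 or DN NK1.1+ replicate 1 or 2.

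Of 62 other mitotic genes, 7 passed the test, all lower in DN NK1.1+ libraries (Racgap1, Pttg1, Aspm, Kif11, Kif23, Smc4 and Tmpo), where 5.99% of all tested genes were lower. At an unadjusted p under 0.05, 1 was higher and 22 were lower, against 13.4% and 11.6% of all tested genes. The median log2 fold change of the list was −0.42, close to the −0.48 of the G2/M genes. Racgap1, for a subunit of centralspindlin, which acts in cytokinesis, had 182, 172 and 222 CPM against 105, 92.8 and 107 CPM. The groups did not overlap, and Racgap1 fell by 0.92 on the log2 scale (SE 0.113, adjusted p = 3.66e-05 in edgeR's quasi-likelihood test). Pttg1, for securin, the inhibitor of separase, had 31.2, 24.7 and 27.7 CPM against 15.2, 19.4 and 16.99 CPM (log2 fold change −0.69, adjusted p = 0.0203), and CD8 beta+ replicate 3 was not its highest library. Aspm, for a protein of spindle poles, had 42.2, 35.0 and 58.5 CPM against 28.4, 28.8 and 29.3 CPM (log2 fold change −0.65, adjusted p = 0.0242). The call of Pttg1 was lost without replicate 1 of either group, and that of Aspm without any library other than CD8 beta+ replicate 2, with a log2 fold change of −0.43 without CD8 beta+ replicate 3.

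Replication-dependent histone genes, whose transcripts accumulate in S phase and mostly lack a poly(A) tail, summed to 2154, 1663 and 3082 CPM in CD8 beta+ libraries and to 1687, 1781 and 2543 CPM in DN NK1.1+ libraries. Replicate 3 was the highest of its group in 48 of 54 tested histone genes for CD8 beta+ libraries, against 38.0% of all tested genes. For DN NK1.1+ libraries it was the highest in 47, against 36.4%. The histone sum of replicate 3 was 1.62 and 1.47 times the mean of its fellow libraries in the CD8 beta+ and the DN NK1.1+ group. By the median over tested histone genes its excess was 0.71 and 0.81 log2 units. A single histone gene passed the test: Hist1h4c rose from 19.5, 16.3 and 23.5 CPM to 30.4, 32.9 and 31.9 CPM (log2 fold change 0.69, adjusted p = 0.0179 in edgeR's quasi-likelihood test), and this call was lost without CD8 beta+ replicate 1 or 2 or DN NK1.1+ replicate 2. Histone genes are near copies of one another, and reads may be shared among them, which makes single values uncertain.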

How the data were processed

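Bulk RNA was sequenced from 6 libraries, 3 per group. The table deposited by the authors holds gene-level expected counts, as far as the values show. That unit was inferred, since the values carry up to 2 decimals and differ in total between libraries. The submitters' processing notes list the build mm10 and Cell Ranger 7.1.0, a single-cell tool, with no role. Not given in the sources used here are aligner, counter, annotation and use of strand. The headings of the ID and symbol columns are swapped in the file, and all 55450 IDs and symbols matched GENCODE M21, the source of coordinates and exon lengths. Of the 31 genes, 21 had a fractional count in at least 1 library.

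Counts were rounded and tested with edgeR 4.0.16 in R 4.3.3 (quasi-likelihood test, robust fit, TMM, group alone), keeping genes by edgeR's filter (minimum count 10, total at least 15). Two-sided p-values of the 13171 genes kept were adjusted together by the Benjamini-Hochberg method and called below 0.05. SEs came from the F statistic. Chi-square per degree of freedom between libraries of 1 group was 9.07 to 23.5, so none was a copy. The alternatives were RLE, upper quartile and library size scaling, no filter, a minimum count of 30, DESeq2 1.42.0, limma-voom (limma 3.58.1), a replicate block, each library left out, and other class assignments. The fit was tested on simulated counts of these 13171 genes: of genes changed by 1.5-fold, 2-fold and 4-fold, 17.2%, 58.0% and 64.2% were recovered, and 6% of 100 calls were false.

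The members, phase classes and lists were chosen with earlier results of these data known. All members were named, and of each further cell cycle list up to 3 called genes with the largest log2 fold change and at least 2 CPM in the higher group. Kif11, Kif23, Smc4 and Tmpo, the naive T cell list and the genes on the opposite strand were chosen after their values were seen. From the naive T cell list and from the B and plasma cell list, 1 gene each is not reported here.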

Additional observations from a re-analysis of the deposited data

How the results depend on the processing

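The direction of the G2/M median held under every alternative tried, and that of the G1/S median did not. The G2/M median was −0.64 to −0.12 with each library left out in turn, the nearest to 0 without CD8 beta+ replicate 3. Leaving out 1 library gave 0 to 1 higher G1/S gene, 0 to 3 lower G2/M genes, 1 to 7 higher and 4 to 20 lower genes of the further cell cycle lists, and 681 to 1093 higher and 499 to 883 lower genes over all. Called among G1/S genes were Ccne2 and Pclaf without the count filter (1 higher, 1 lower) and Ccne2 (1 higher) with a minimum count of 30, with DESeq2, with limma-voom and without both replicate 3 libraries, an alternative added after the data were seen. Called as lower among G2/M genes were 3 without the filter (Top2a, Nusap1 and Hmgb2), 2 with DESeq2, and 1 (Nusap1) with a minimum count of 30 or with upper quartile scaling. Ccna2 and Stmn1 were also called as lower without the filter, where 1 of the 31 genes was higher and 6 were lower. Of the further lists, 7 higher and 25 lower genes were called without the filter, 14 lower with upper quartile scaling, and 9 higher and 20 lower without both replicate 3 libraries. Over all genes, 1165 higher and 1027 lower of 23118 were called without the filter, and 1025 and 819 of 10928 with a minimum count of 30. Upper quartile scaling gave 977 and 883 of 13171, and leaving out both replicate 3 libraries gave 1207 and 1024 of 13230. The cause of these shifts was not tested.

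What equal replicate numbers share is not stated, and they were not treated as pairs: deviations from the group means correlated at −0.05, 0.19 and 0.26 for equal numbers, with numbers 2 and 3 correlating best with their own number and CD8 beta+ replicate 1 with another. With the replicate block, 1 G1/S gene was higher (Ccne2), and 2 G2/M genes (Top2a and Nusap1) and Stmn1 were lower. Of the further lists, 5 genes were higher and 31 lower with that block. The same fit called 1137 genes as higher and 945 as lower over all 13171 tested. Under the replicate block the log2 fold changes of Ccne1 and Pcna turned to 0.029 and 0.0015.

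Without both replicate 3 libraries the log2 fold changes of Ccne1 (0.19), Mcm4 (0.0029), Mcm7 (0.054), Pcna (0.14), Rrm2 (0.063), Cdk1 (0.0035), Bub1b (0.097) and Mki67 (0.15) turned above 0. Scaling by library size alone turned Ccne1 (0.034), Pcna (0.026) and Tk1 (0.0084), and limma-voom turned Pcna (0.00036). With single libraries left out, fitted values changed sign in 10 genes: Ccne1 (−0.22 to 0.17), Mcm3 (−0.34 to 0.032), Mcm7 (−0.17 to 0.13), Pcna (−0.13 to 0.15), Tk1 (−0.37 to 0.20), Rrm1 (−0.057 to 0.23), Rrm2 (−0.24 to 0.15), Cdk1 (−0.35 to 0.17), Bub1b (−0.25 to 0.16) and Mki67 (−0.31 to 0.11).

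Mean sums moved with the genes counted. Without Mki67, Hmgb2, Top2a, Mcm6 and Pcna the G1/S sum was 806 CPM in CD8 beta+ and 744 CPM in DN NK1.1+ libraries, the G2/M sum 288 and 214 CPM, and the ratio 0.353 and 0.288. With Ccna2 and Stmn1 counted in G2/M, the ratio was 1.40 and 1.25 and the DN NK1.1+ G2/M sum 1483 CPM. With these genes counted in G1/S, the ratio was 1.11 and 1.02 and the DN NK1.1+ G1/S sum 1321 CPM. With library size alone the DN NK1.1+ G2/M sum was 1368 CPM. The log2 difference of the ratio between the groups, −0.15, became −0.30 from mean log2 levels, −0.29 without the 5 abundant genes and −0.053 without both replicate 3 libraries. Plk1, Aurka, Aurkb and Ccnb1 had the fewest counts of the 31 genes, and the part of depth in their values was not tested. In simulated counts 17.2%, 58.0% and 64.2% of changes of 1.5-fold, 2-fold and 4-fold were recovered among genes drawn from all those tested, without an outlying library.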

Other observations

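The excess of CD8 beta+ replicate 3 over its 2 fellow libraries was not uniform across the wider cell cycle lists. It was the highest of its group in 49 of 62 other mitotic genes and in 29 of 40 other replication genes, against 38.0% of all tested genes. In the list of G1 entry, with cyclins D, CDK4, CDK6 and MYC, it was the highest in 6 of 16 genes. The sum of that list was 1260, 1217 and 1203 CPM in CD8 beta+ libraries and 1340, 1361 and 1313 CPM in DN NK1.1+ libraries, so that replicate 3 of either group was not raised there. Ccnd2, for cyclin D2, led this list, and had a log2 fold change of 0.18 with an adjusted p of 0.257 in edgeR's quasi-likelihood test. Foxm1 and Mybl2, which encode FOXM1 and B-MYB, had log2 fold changes of −0.56 and −0.53 with 95% intervals of −1.16 to 0.05 and −1.69 to 0.62. Cdkn1b, for the CDK inhibitor p27, had a log2 fold change of −0.21 with an adjusted p of 0.180 in the same test. Ccnd2, Foxm1, Mybl2 and Cdkn1b were chosen after their values were seen.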
